A study of Mus musculus with 2 samples.

Results

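The 10 genes Arntl, Clock, Npas2, Per1, Per2, Per3, Ciart, Nr1d1, Nr1d2 and Dbp, which form or report the circadian clock, were followed through the nucleus classes of the mouse heart. They were taken by symbol from the gene list that the libraries share, which holds 32245 symbols, and all 10 were present. Nuclear RNA of cardiac tissue was sequenced from single nuclei in 2 libraries of the 10x Genomics 3′ v3 kit, and in this kit each RNA molecule is counted once through a unique molecular identifier (UMI). Both libraries came from male C57Bl6/J mice aged 3.5 months that carried Tcf21-MerCreMer and received tamoxifen. The CF-KI library had the genotype Tcf21-MerCreMer;Nlrp3-A350V/A350V and stands for constitutively active NLRP3 in fibroblasts, while the control library had Tcf21-MerCreMer;Nlrp3-WT/WT. MerCreMer is a Cre recombinase that tamoxifen switches on, and here it is driven from Tcf21, a transcription factor gene of cardiac fibroblasts. By the series' own note the Nlrp3 allele stays silent in cells without Cre. How many animals went into each library, and the hour at which hearts were taken, are not given in the sources used here.

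In the mammalian clock, the activators BMAL1 (gene Arntl) and CLOCK, or NPAS2 in its place, bind E-box sequences and switch on the Per and Cry genes, the Rev-erb genes Nr1d1 and Nr1d2, Ciart and the output gene Dbp. PER and CRY proteins then block the activators, and the Rev-erb proteins repress Arntl, so that the genes of the loop come on in a fixed order through the day. This loop runs in the heart as in most tissues, and the level of a clock gene therefore depends on the hour of collection. With 1 library per genotype, genotype, hour of collection, animal and library preparation cannot be told apart, no test between groups is possible, and every interval printed here is a 95% interval of counting error only.

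The promoters were searched for exact runs of letters that clock factors read, and the windows with a match are printed to set beside the values below. They run from 250 bases before to 50 after the start of transcription, are taken from RefSeq on GRCm38.p6, and are written 5′ to 3′ on the gene's own strand with the matched motif in capitals. Of the 10 genes, 9 had at least 1 window, in 13 windows together, and Per2 had none. The motifs searched on both strands were the E-box CACGTG, the related E-prime-box CACGTT, the ROR element TAGGTCA, the D-box TTATGTAA and the CRE TGACGTCA. The reverse of CACGTT reads AACGTG, and none of these 5 motifs contains another. Ciart lies at chr3:95882179-95882478 on the minus strand with 3 E-boxes, Per1 at chr11:69098699-69098998 on the plus strand with 1 E-box, Nr1d1 at chr11:98775328-98775627 on the minus strand with 1 E-prime-box, Arntl at chr7:113207261-113207560 on the plus strand with 1 ROR element, and Per3 at chr4:151044616-151044915 on the minus strand with 2 D-boxes.
Ciart: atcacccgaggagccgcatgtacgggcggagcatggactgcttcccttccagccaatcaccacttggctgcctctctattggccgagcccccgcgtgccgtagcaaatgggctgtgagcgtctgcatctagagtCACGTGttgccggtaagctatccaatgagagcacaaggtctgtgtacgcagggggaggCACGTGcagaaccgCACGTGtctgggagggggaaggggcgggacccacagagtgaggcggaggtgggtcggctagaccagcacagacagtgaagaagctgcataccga
Per1: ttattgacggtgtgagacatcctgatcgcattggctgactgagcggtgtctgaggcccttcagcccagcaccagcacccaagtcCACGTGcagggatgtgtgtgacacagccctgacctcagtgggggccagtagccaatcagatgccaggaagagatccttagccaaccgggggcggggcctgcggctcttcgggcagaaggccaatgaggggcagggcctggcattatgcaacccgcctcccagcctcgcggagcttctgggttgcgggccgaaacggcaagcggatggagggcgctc
Nr1d1: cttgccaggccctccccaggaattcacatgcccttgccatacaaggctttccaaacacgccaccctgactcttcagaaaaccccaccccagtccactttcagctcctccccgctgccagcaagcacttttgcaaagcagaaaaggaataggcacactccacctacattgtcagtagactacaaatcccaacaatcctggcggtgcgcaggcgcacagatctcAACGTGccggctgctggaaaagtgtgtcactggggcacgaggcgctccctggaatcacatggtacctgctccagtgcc
Arntl: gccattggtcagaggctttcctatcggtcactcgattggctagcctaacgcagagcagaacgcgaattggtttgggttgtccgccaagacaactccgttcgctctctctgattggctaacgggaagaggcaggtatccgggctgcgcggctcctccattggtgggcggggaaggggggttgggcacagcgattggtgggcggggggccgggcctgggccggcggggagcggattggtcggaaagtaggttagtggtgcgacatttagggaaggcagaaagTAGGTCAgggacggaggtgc
Per3: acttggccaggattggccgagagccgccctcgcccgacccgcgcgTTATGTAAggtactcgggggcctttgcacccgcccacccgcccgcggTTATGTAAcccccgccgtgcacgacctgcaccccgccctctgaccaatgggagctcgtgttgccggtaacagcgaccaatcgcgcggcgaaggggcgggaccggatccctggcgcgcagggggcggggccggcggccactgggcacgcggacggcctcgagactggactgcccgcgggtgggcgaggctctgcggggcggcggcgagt
The E-boxes of Ciart begin 116, 58 and 44 bases before the start, and that of Per1 166 bases before it. The E-prime-box of Nr1d1 begins 28 bases before the start, the D-boxes of Per3 205 and 158 bases before it, and the ROR element of Arntl 30 bases after it. Of all 32851 RefSeq promoters of this length, 7.15% hold the E-box, 4.68% the E-prime-box, 2.61% the ROR element, 0.938% the D-box and 1.79% the CRE. The windows of Dbp, Nr1d2, Clock and Npas2 did not hold these letters, nor did the other windows of Per1 and Arntl. Sites outside the windows and other variants of the motifs were not searched, so a gene without a match may still carry such elements. A match is a run of letters and not a measured binding site.

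The libraries held 21603653 UMIs in 15077 barcodes (CF-KI) and 18040776 UMIs in 11257 barcodes (control), with medians of 1115 and 1158 UMIs per barcode. After removal of barcodes with fewer than 200 genes, with more than 20% mitochondrial UMIs or scored as likely doublets, 9472 CF-KI and 9724 control nuclei were kept. The kept nuclei differed in mitochondrial share, with medians of 10.2% in CF-KI and 3.14% in control. The libraries shared 46 barcodes. Joint clustering without the clock genes gave 9 classes, named from markers, in which each library had 50 nuclei or more. They were fibroblast-like (2816 CF-KI and 3450 control nuclei), cardiomyocyte-like (2535 and 2205), endothelial-like (1341 and 810), endocardial-like (1071 and 1042), mesothelial-like (537 and 558), macrophage-like (431 and 818), pericyte-like (315 and 441), lymphatic endothelial-like (140 and 94) and adipocyte-like (93 and 142). The fibroblast-like class joins 3 clusters and the endothelial-like class 2. Within a class the libraries did not mix evenly: at a finer resolution of 1.5 the larger cardiomyocyte-like clusters held 1619 CF-KI and 221 control nuclei and 721 and 1329, and fibroblast-like clusters included 1 of 1616 and 606 and 1 of 130 and 929. Ratios within a class therefore compare partly different clusters. Nlrp3 itself, whose allele defines the groups, gave 4 UMIs in CF-KI and 0 in control fibroblast-like nuclei and 30 and 17 UMIs over all kept nuclei. It was not confined to fibroblast-like nuclei, with 9 and 0 UMIs in cardiomyocyte-like, 5 and 0 in endothelial-like and 8 and 17 in macrophage-like nuclei. These counts cannot show which allele was read.

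Summed over all kept nuclei, Nr1d1, Dbp, Ciart and Nr1d2 were higher in the CF-KI library, and Per2, Arntl, Per3, Per1 and Clock were lower. Levels are given as UMIs per 1000000 non-mitochondrial UMIs (CPM), and differences as the log2 ratio of CF-KI over control. Nr1d1 stood at 63.8 CPM in CF-KI and 23.2 CPM in control, a log2 ratio of 1.46 (1.27 to 1.65), and Per2 at 6.11 and 20.7 CPM, a log2 ratio of -1.76 (-2.15 to -1.39). Npas2 was at 11.9 CPM in both libraries, with a log2 ratio of -0.01 (-0.34 to 0.32). Because classes take different shares of the libraries, the comparison was made within each class. Among genes with at least 20 UMIs over both libraries, past 2-fold means a log2 ratio of at least 1 in either direction after 0.5 UMIs were added to each count.

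**Figure D1:**
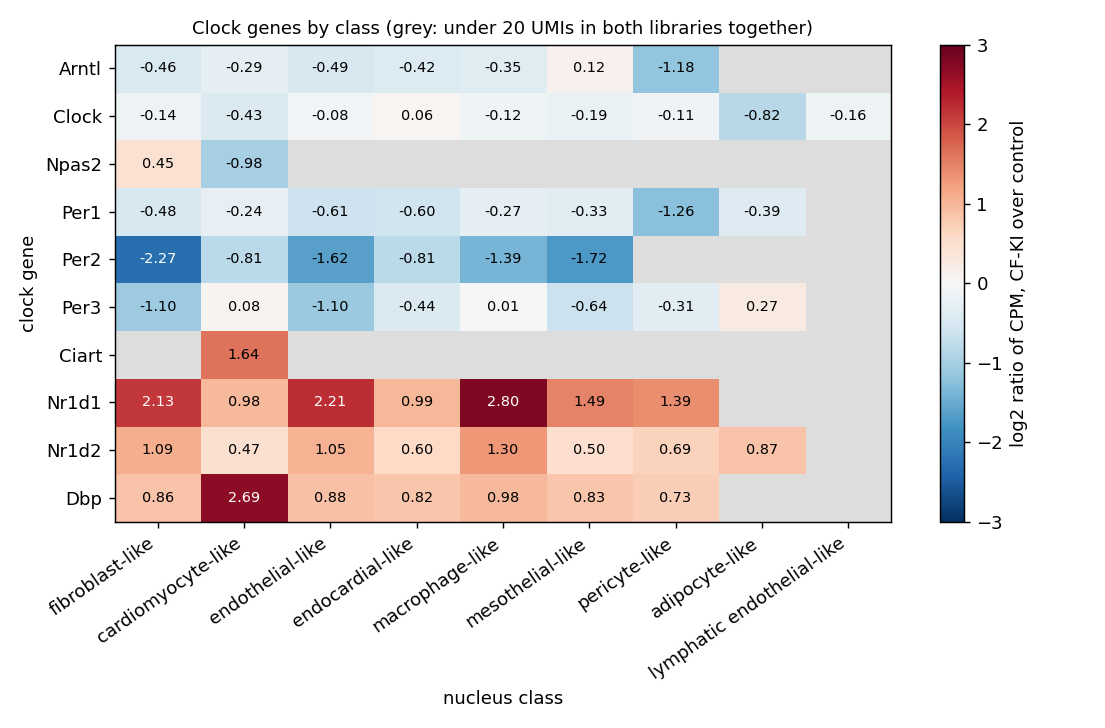
Log2 ratio of CPM, CF-KI over control, for the 10 clock genes (rows) in the 9 nucleus classes (columns), with red for higher and blue for lower in CF-KI and grey where both libraries together held fewer than 20 UMIs. The Nr1d1, Nr1d2 and Dbp rows are red in every filled cell and the Per1 and Per2 rows blue, while Dbp is darkest in cardiomyocyte-like nuclei at 2.69 and Per2 in fibroblast-like nuclei at -2.27.

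Nr1d1 (ENSMUSG00000020889, chr11:98767932-98775333, minus strand, GRCm38) encodes the nuclear receptor REV-ERB alpha, a repressor of Arntl. In all 7 classes in which it had at least 20 UMIs the CF-KI level was the higher, with an interval above 0 in every one. In fibroblast-like nuclei its level was 96.7 CPM (85.3 to 109) from 256 UMIs in CF-KI and 22.2 CPM (17.8 to 27.3) from 89 UMIs in control, and these level intervals do not overlap. The ratio was 4.36-fold there, a log2 ratio of 2.13 (1.77 to 2.49). Endothelial-like nuclei gave 57.7 CPM (47.0 to 70.2) in CF-KI and 12.4 CPM (6.43 to 21.7) in control, a log2 ratio of 2.21 (1.35 to 3.21). The widest ratio was in macrophage-like nuclei, at 33.2 CPM against 4.76 CPM and a log2 ratio of 2.80 (1.28 to 4.78), but the control count behind it was 4 UMIs. In the same class the summed level of the 9 macrophage markers, all detected in both libraries, was 3556 CPM in CF-KI and 10483 CPM in control, and the part of this in the macrophage-like ratios was not tested. Cardiomyocyte-like nuclei stood at 43.0 CPM (37.1 to 49.7) and 21.8 CPM (18.1 to 26.0), a log2 ratio of 0.98 (0.65 to 1.32). In the cardiomyocyte-like nuclei over 5% mitochondrial, with 55 and 6 UMIs, that log2 ratio was -0.10 (-1.31 to 1.41). The factor differed between classes: the fibroblast-like log2 ratio exceeded the cardiomyocyte-like one by 1.14 (0.65 to 1.64), and the endocardial-like one, at 0.99, lay 1.13 (0.40 to 1.85) under it. Mesothelial-like and pericyte-like nuclei lay between, at 1.49 (0.90 to 2.11) and 1.39 (0.50 to 2.33). Thra overlaps Nr1d1 on the opposite strand, and the strand setting of the counting is not given in the sources used here.

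Nr1d2 (ENSMUSG00000021775, chr14:18204054-18239127, minus strand) encodes REV-ERB beta, the partner of Nr1d1 in repression. All 8 classes with enough UMIs had the higher level in CF-KI, with log2 ratios from 0.47 to 1.30, and the interval lay above 0 in 6 of them. Fibroblast-like nuclei gave 68.8 CPM (59.1 to 79.5) in CF-KI against 32.4 CPM (27.1 to 38.5) in control, and endothelial-like nuclei gave 74.9 CPM (62.6 to 88.9) against 36.3 CPM (25.3 to 50.5). Their log2 ratios were 1.09 (0.75 to 1.42) and 1.05 (0.50 to 1.63). In cardiomyocyte-like nuclei, where the counts were highest at 512 and 482 UMIs, the log2 ratio was 0.47 (0.29 to 0.66), which is 0.61 (0.23 to 0.99) under the fibroblast-like value. As for Nr1d1, the widest ratio was in macrophage-like nuclei, at 1.30 (0.68 to 1.96). Among the fibroblast-like nuclei of at most 5% mitochondrial share, CF-KI had only 2 Nr1d2 UMIs and the log2 ratio was -0.18 (-3.27 to 1.74), so the direction was not detectable there, whereas the nuclei over 5% gave 1.16 (0.77 to 1.56).

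Dbp (ENSMUSG00000059824, chr7:45705088-45710203, plus strand) encodes a transcription factor that carries the clock's output to D-box genes, among them Per genes. All 7 classes with enough UMIs had more Dbp in CF-KI, and among these 7 cardiomyocyte-like nuclei had by far the highest ratio. There it stood at 34.2 CPM (29.0 to 40.2) from 148 UMIs in CF-KI and at 5.31 CPM (3.58 to 7.58) from 30 UMIs in control, a 6.45-fold difference and a log2 ratio of 2.69 (2.12 to 3.31). The other 6 of these classes lay close together, from 0.73 in pericyte-like to 0.98 in macrophage-like nuclei. Under the minimum, adipocyte-like nuclei gave 2.49 (0.096 to 5.79) from 7 and 2 UMIs. Lymphatic endothelial-like nuclei gave 0.30 (-2.06 to 2.99) from 5 and 3 UMIs. The cardiomyocyte-like ratio was not compared with these. Fibroblast-like nuclei had 30.2 CPM (24.0 to 37.6) and 16.7 CPM (12.9 to 21.2), a log2 ratio of 0.86 (0.37 to 1.35). The cardiomyocyte-like ratio exceeded that of each of the other 6 classes with an interval that left out 0, by 1.96 (0.72 to 3.18) on the log2 scale over the pericyte-like nuclei, and the fibroblast-like minus cardiomyocyte-like difference was -1.83 (-2.62 to -1.08). At the finer resolution of 1.5 the clusters named cardiomyocyte-like, summed again into 1 class, gave 2.76 (2.13 to 3.45). A cluster of 55 CF-KI and 522 control nuclei stayed without a name there and was not in the sum. Dbp was not compared within single clusters, so this value does not address the uneven mixing of the libraries. With at least 500 genes per nucleus a cluster of 1796 CF-KI and 193 control nuclei, led by haemoglobin genes and also by the sarcomere gene Tcap, took the erythroid name, and the nuclei still named cardiomyocyte-like gave 2.19 (1.18 to 3.16) from 16 and 24 UMIs. In control, cardiomyocyte-like nuclei had the lowest Dbp level of the 9 classes, and in CF-KI the sixth highest. Intervals of the log2 ratio included 0 in endothelial-like (-0.23 to 2.14), macrophage-like (-0.08 to 2.13) and pericyte-like nuclei (-0.33 to 1.83). Free RNA reaches droplets from broken nuclei and cells. Its profile was taken as the sum over all barcodes of the library, and its share was estimated from markers of other classes. After its subtraction the endothelial-like Dbp ratio turned to -0.39, and the cardiomyocyte-like one was 2.87. Sphk2 overlaps Dbp on the opposite strand.

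Measures of RNA content also differed between the libraries. In cardiomyocyte-like nuclei, where the Dbp ratio was highest, the median log2 ratio of ribosomal protein genes was 1.39, with 85 of 89 genes above 0, against a median of 0.17 over all 12094 genes with at least 20 UMIs. The nuclear RNA Malat1 took 40.7% of the non-mitochondrial UMIs of these nuclei in CF-KI and 46.7% in control. In fibroblast-like nuclei the ribosomal protein median was 0.40 and that of endothelial-like nuclei 0.30. The ribosomal protein median was 1.29 in adipocyte-like nuclei, with 78 of 78 genes above 0, and 0.94 in pericyte-like nuclei. It was 0.67 in mesothelial-like, 0.49 in lymphatic endothelial-like, 0.42 in endocardial-like and 0.10 in macrophage-like nuclei. The macrophage-like minus pericyte-like difference of the Dbp log2 ratios was 0.25 (-1.28 to 1.81), an interval too wide to order these classes. The part of the ribosomal protein shift in the Dbp ratio was not tested. By the smallest root mean square distance of log2 ratios over 7 classes, the 5 genes of 5520 nearest to Dbp were Ost4 (0.418), Rps23 (0.418), Elob (0.428), Gng11 (0.428) and Tmsb4x (0.434), none of them a clock gene by these lists. The 5520 genes had at least 20 UMIs in each of these classes, which left out Per2, Npas2 and Ciart. How unusual such distances are was not tested. With scaling by trimmed means (TMM), which lowers all cardiomyocyte-like log2 ratios by 0.16, the Dbp value was 2.53 (1.96 to 3.15).

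**Figure D2:**
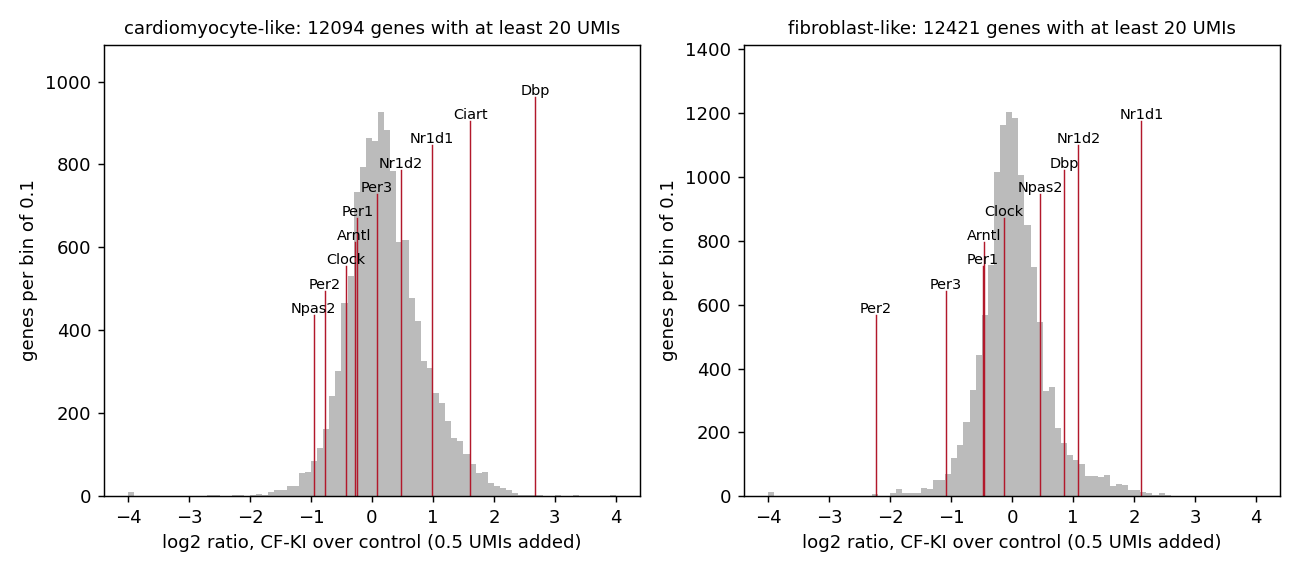
Histogram of log2 ratios, CF-KI over control with 0.5 UMIs added, of every gene that reached 20 UMIs in cardiomyocyte-like (12094 genes) and fibroblast-like nuclei (12421 genes), in bins of 0.1 with values beyond 4 in the outermost bins. Red lines mark the clock genes, and their heights only keep the names apart. Dbp and Ciart lie far to the right in cardiomyocyte-like nuclei, and Nr1d1 and Per2 at opposite ends in fibroblast-like nuclei.

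Per2 (ENSMUSG00000055866, chr1:91415982-91459324, minus strand) encodes a repressor of BMAL1 and CLOCK and was lower in CF-KI in all 6 classes with enough UMIs. Fibroblast-like nuclei held 22 Per2 UMIs in CF-KI and 161 in control, or 8.31 CPM (5.21 to 12.6) and 40.1 CPM (34.2 to 46.8). That is a 4.82-fold lower level and a log2 ratio of -2.27 (-2.98 to -1.62), and the level intervals are far apart. Mesothelial-like nuclei gave -1.72 (-3.17 to -0.47), endothelial-like nuclei -1.62 (-2.91 to -0.41) and macrophage-like nuclei -1.39 (-2.89 to -0.08). In cardiomyocyte-like nuclei Per2 was rare, at 10 and 23 UMIs, with a log2 ratio of -0.81 (-2.05 to 0.31). The fibroblast-like minus cardiomyocyte-like difference was -1.46 (-2.79 to -0.06) and the fibroblast-like minus endocardial-like difference -1.46 (-2.77 to -0.11).

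Per1 (ENSMUSG00000020893, chr11:69095217-69109960, plus strand), a paralogue of Per2 that also answers quickly to hormones and other signals, was lower in CF-KI in all 8 classes with enough UMIs, by less than Per2 in the classes with both. Fibroblast-like nuclei had 54.4 CPM (45.9 to 64.1) in CF-KI and 76.0 CPM (67.7 to 85.0) in control, a log2 ratio of -0.48 (-0.78 to -0.19). Endothelial-like and endocardial-like nuclei gave -0.61 (-1.02 to -0.20) and -0.60 (-1.14 to -0.08). The interval also lay below 0 in pericyte-like nuclei, at -1.26 (-2.54 to -0.11) from 9 and 25 UMIs, and it included 0 in cardiomyocyte-like nuclei, at -0.24 (-0.63 to 0.14). None of the 28 differences between classes had an interval that left out 0. Within the endothelial-like class its 2 clusters parted: the log2 ratio was -0.93 (-1.38 to -0.47) in the cluster led by Depp1, Rgcc and Cxcl12 and 0.56 (-0.40 to 1.56) in the cluster led by Rasa4, Ccdc85a and Mcf2l.

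Per3 (ENSMUSG00000028957, chr4:151003652-151044665, minus strand), whose promoter above holds the pair of D-boxes, split the classes. It was lower in CF-KI in fibroblast-like nuclei, at 43.5 CPM (35.9 to 52.2) against 92.9 CPM (83.7 to 103) and a log2 ratio of -1.10 (-1.41 to -0.79). Endothelial-like nuclei gave the same ratio, -1.10 (-1.76 to -0.45), from 38 and 45 UMIs, and mesothelial-like nuclei -0.64 (-1.07 to -0.21). Cardiomyocyte-like nuclei, with 271 and 335 UMIs, stood at 62.7 CPM (55.5 to 70.6) and 59.3 CPM (53.1 to 66.0), a log2 ratio of 0.08 (-0.15 to 0.32). Macrophage-like nuclei lay at 0.01 (-0.63 to 0.65). The fibroblast-like minus cardiomyocyte-like difference was -1.18 (-1.57 to -0.79), and 8 of the 28 differences between classes left out 0, beside 6 of 21 for Nr1d1 and 6 of 21 for Dbp. These differences share classes, as all 6 for Dbp involve cardiomyocyte-like nuclei, and no such count was made over all genes. Camta1 overlaps Per3 on the same strand.

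Ciart (ENSMUSG00000038550, chr3:95878503-95882251, minus strand), which encodes the repressor CHRONO, reached 20 UMIs in cardiomyocyte-like nuclei alone. Those nuclei had 38 UMIs in CF-KI and 16 in control, or 8.79 CPM (6.22 to 12.1) and 2.83 CPM (1.62 to 4.60), with no overlap of the intervals. The log2 ratio was 1.64 (0.76 to 2.58). In fibroblast-like nuclei, the largest class, Ciart gave 1 UMI in CF-KI and 0 in control, and the control count of 0 allows a level of up to 0.919 CPM. Endothelial-like nuclei had 5 and 0 UMIs, which is too few for a ratio. C920021L13Rik overlaps Ciart on the opposite strand.

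**Figure D3:**
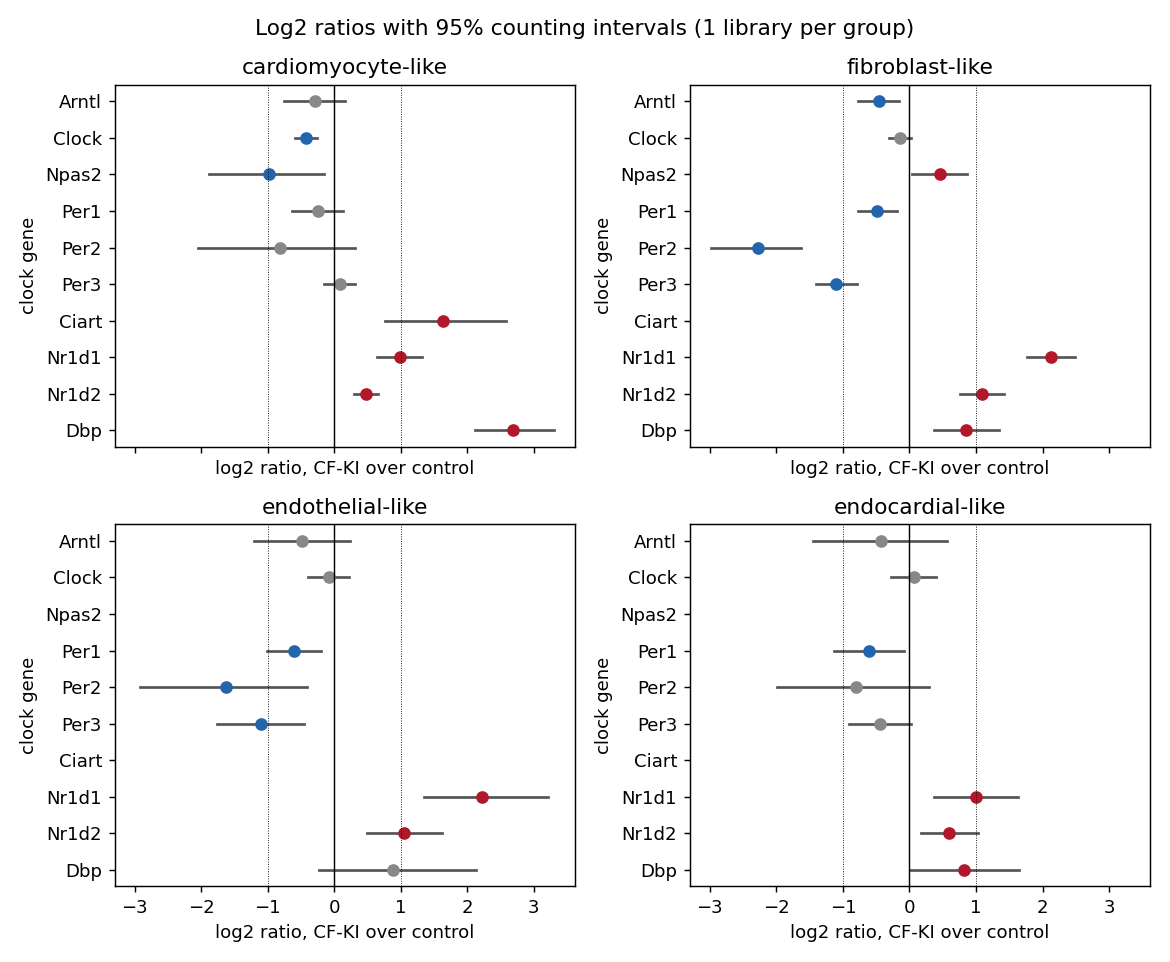
Log2 ratio of CF-KI over control with its 95% counting interval for each clock gene with at least 20 UMIs in nuclei of the cardiomyocyte-like, fibroblast-like, endocardial-like and endothelial-like classes. Points are red where the interval lies above 0, blue where it lies below 0 and grey where it includes 0, and dotted lines mark 2-fold. Nr1d1 and Nr1d2 are red in all 4 classes, while Per3 is blue in fibroblast-like and endothelial-like nuclei and grey in the others.

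Among the activators, Arntl (ENSMUSG00000055116, chr7:113207465-113314126, plus strand) encodes BMAL1 and is the gene that the Rev-erb proteins repress. It was lower in CF-KI in 6 of the 7 classes with enough UMIs, but only the fibroblast-like interval left out 0. The level there was 51.4 CPM (43.1 to 60.8) in CF-KI and 70.8 CPM (62.8 to 79.5) in control, a log2 ratio of -0.46 (-0.77 to -0.16). Cardiomyocyte-like nuclei had 15.04 CPM (11.6 to 19.2) and 18.4 CPM (15.03 to 22.3), a log2 ratio of -0.29 (-0.76 to 0.17), and endothelial-like nuclei -0.49 (-1.20 to 0.23). Pericyte-like nuclei had the lowest ratio, -1.18 (-2.56 to 0.06), from 8 and 21 UMIs, and mesothelial-like nuclei lay at 0.12 (-1.16 to 1.40). No difference between 2 classes left out 0 among the 21 compared. The 5 genes of 5520 whose log2 ratios over the 7 classes were nearest to those of Arntl were Mif4gd (distance 0.118), Cep290 (0.163), Ei24 (0.175), Gle1 (0.185) and Smo (0.185). Gm45355 overlaps Arntl on the opposite strand.

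Clock (ENSMUSG00000029238, chr5:76209868-76304792, minus strand) encodes the partner of BMAL1, whose RNA changes little through the day in most tissues. It was measured best of all members, with 1674 and 2417 UMIs over the kept nuclei, and had enough UMIs in all 9 classes. The log2 ratio was -0.14 (-0.31 to 0.02) in fibroblast-like, -0.08 (-0.39 to 0.23) in endothelial-like and 0.06 (-0.28 to 0.40) in endocardial-like nuclei. Cardiomyocyte-like nuclei gave 109 CPM (99.8 to 120) against 147 CPM (138 to 158), a log2 ratio of -0.43 (-0.60 to -0.26), and adipocyte-like nuclei -0.82 (-1.47 to -0.20) from 30 and 85 UMIs. In the cardiomyocyte-like nuclei over 5% mitochondrial the Clock log2 ratio turned to 0.95 (-0.13 to 2.30), from 133 and 7 UMIs. Over whole classes, Clock stayed within 2-fold in all 9. Ube2n-ps1 and Gm43658 overlap it on the same strand.

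Npas2 (ENSMUSG00000026077, chr1:39193731-39363236, plus strand), a paralogue that can stand in for CLOCK, had enough UMIs in only 2 classes and differed in opposite directions. Fibroblast-like nuclei had 35.1 CPM (28.4 to 43.1) in CF-KI and 25.7 CPM (20.9 to 31.1) in control, a log2 ratio of 0.45 (0.03 to 0.87). Cardiomyocyte-like nuclei had 3.93 CPM (2.29 to 6.30) and 7.78 CPM (5.66 to 10.4), a log2 ratio of -0.98 (-1.89 to -0.15) from 17 and 44 UMIs. The difference between these ratios was 1.44 (0.50 to 2.43), and the gene's flat value over all kept nuclei hides it. Gm3617 on the same strand and Gm20428 on the opposite strand overlap Npas2.

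Each gene's levels were next ranked over the classes within 1 library, and neighbours in an order were compared by the interval of their ratio. Most neighbours did not differ beyond counting error. In control, Nr1d1 ran from 48.3 CPM in mesothelial-like to 4.76 CPM in macrophage-like nuclei with no step between neighbours beyond its interval. In CF-KI it ran from 136 CPM in mesothelial-like to 29.4 CPM in lymphatic endothelial-like nuclei, and the fibroblast-like nuclei, the sixth in control at 22.2 CPM, were the third at 96.7 CPM, set apart from the endocardial-like nuclei at 72.7 CPM. For Dbp, mesothelial-like nuclei came first in both libraries, at 91.1 CPM in CF-KI and 51.2 CPM in control. Per2 was highest in fibroblast-like nuclei of the control library, at 40.1 CPM, whereas in CF-KI fibroblast-like nuclei were the fifth, at 8.31 CPM. Per3 was highest in mesothelial-like nuclei in both libraries, at 114 and 178 CPM, and the control value stood apart from the next class, endocardial-like nuclei at 103 CPM. Arntl and Npas2 were highest in fibroblast-like nuclei in both libraries, and Per1 in mesothelial-like nuclei in both. Clock ran from 314 CPM in adipocyte-like to 147 CPM in endothelial-like nuclei of the control library, and from 178 to 109 CPM in CF-KI.

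**Figure D4:**
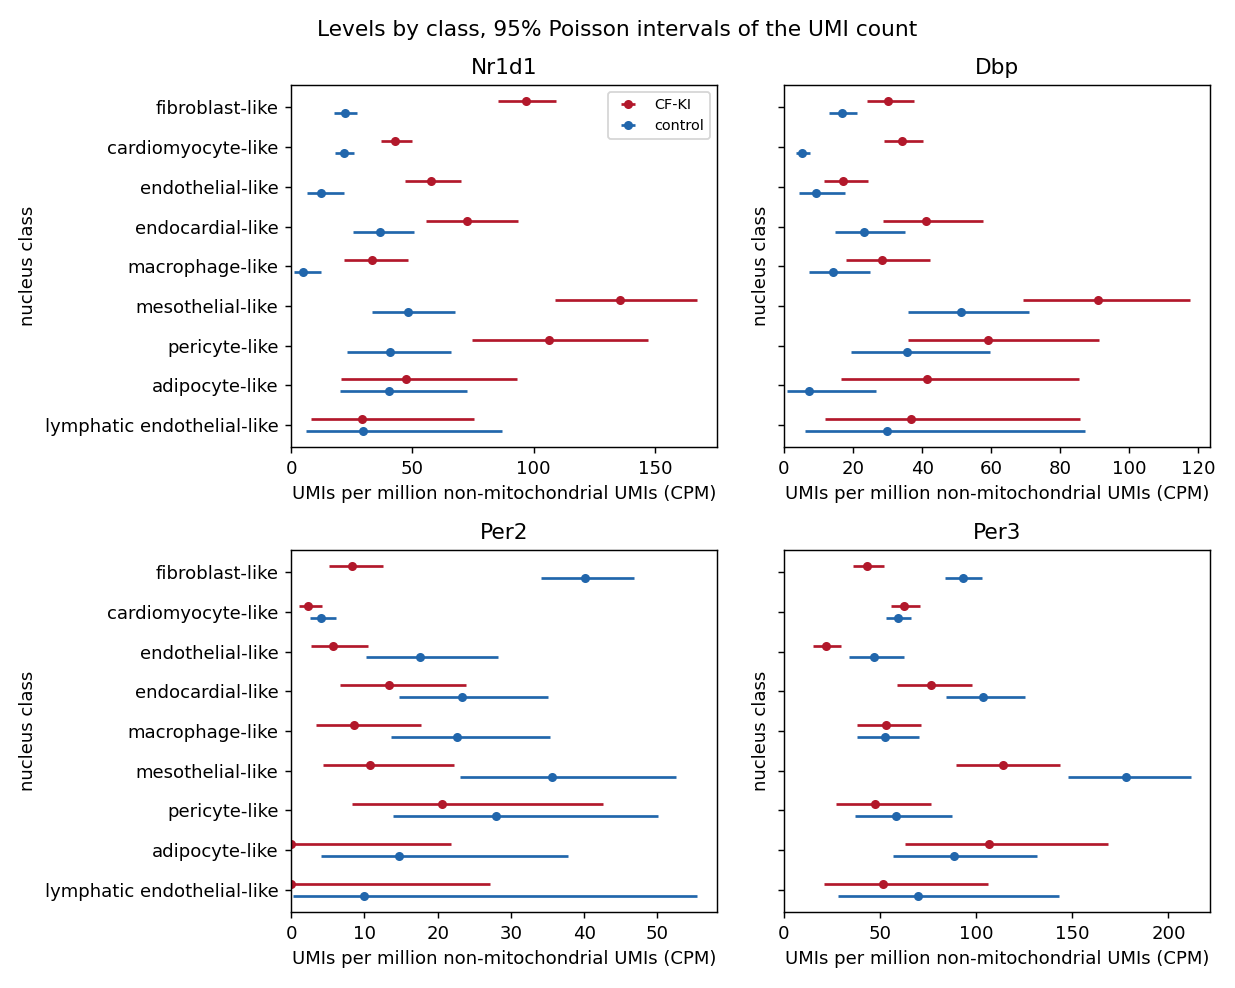
Level in CPM of Nr1d1, Dbp, Per2 and Per3 in each of the 9 classes (rows), with the 95% Poisson interval of the UMI count, in CF-KI (red) and control (blue). For Nr1d1 the CF-KI point lies right of the control point except in lymphatic endothelial-like nuclei, at 29.4 and 29.8 CPM, while for Per2 it lies left in every class.

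Counted against all genes, fibroblast-like nuclei had 2 clock genes of the 9 with enough UMIs past 2-fold higher in CF-KI (Nr1d1, Nr1d2), where 5.27% of all genes were, and 2 lower (Per2, Per3), where 2.56% were. Cardiomyocyte-like nuclei had Dbp and Ciart higher, 2 of 10, beside 11.1% of all genes, and 0 lower beside 2.03%. In endothelial-like nuclei Nr1d1 and Nr1d2 were past 2-fold higher, 2 of 8 beside 2.74%, and Per2 and Per3 lower beside 3.01%. Nr1d1, Nr1d2, Per2 and Per3 thus made up the members past 2-fold in both the fibroblast-like and the endothelial-like class. Macrophage-like nuclei had Nr1d1 and Nr1d2 higher, 2 of 8 beside 8.96%, and Per2 lower beside 7.8%. Mesothelial-like nuclei had Nr1d1 higher beside 6.5% and Per2 lower beside 3.64%, and pericyte-like nuclei Nr1d1 higher beside 11.3% and Arntl and Per1 lower beside 3.78%. No clock gene was past 2-fold in either direction in endocardial-like nuclei (8 with enough UMIs, beside 6.41% and 3.47%), adipocyte-like nuclei (4, beside 11.1% and 6.6%) or lymphatic endothelial-like nuclei (1, beside 9.81% and 5.46%), although in endocardial-like nuclei Nr1d1 was 1.99-fold higher. The median log2 ratio of the clock genes was near that of all genes in fibroblast-like nuclei, at -0.14 and -0.01, since higher and lower members offset each other. In cardiomyocyte-like nuclei these medians were -0.08 and 0.17, and in endothelial-like nuclei -0.29 and -0.07.

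The rest of the loop was read from a list of 14 genes (cryptochromes, nuclear receptors, kinases and ubiquitin ligases that act on PER and CRY, and others). In fibroblast-like nuclei 1 of 12 with enough UMIs was past 2-fold lower, beside 2.56% of all genes, and 0 higher, beside 5.27%. It was Cry1, the partner of PER in repression, with 9 UMIs or 3.40 CPM (1.56 to 6.46) in CF-KI and 111 UMIs or 27.7 CPM (22.7 to 33.3) in control, a log2 ratio of -3.02 (-4.19 to -2.05). Cry1 was also the only list gene past 2-fold in endothelial-like nuclei, 1 of 10 and lower, beside 3.01% of all genes. It stood there at 16.0 CPM (10.6 to 23.1) against 32.1 CPM (21.8 to 45.6), a log2 ratio of -1.01 (-1.80 to -0.22). In cardiomyocyte-like nuclei it had 12 and 26 UMIs and a log2 ratio of -0.73 (-1.85 to 0.31). There, 1 of 12 list genes was past 2-fold higher, beside 11.1% of all genes. This was Rorb, which encodes a nuclear receptor that activates through the element the Rev-erb proteins also bind. Its level was 11.8 CPM (8.79 to 15.5) against 2.83 CPM (1.62 to 4.60), a log2 ratio of 2.06 (1.23 to 2.97). The medians of the list were -0.06 in fibroblast-like, -0.02 in cardiomyocyte-like and -0.09 in endothelial-like nuclei.

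A list of 14 other genes with known daily rhythms (among them Tef and Hlf, the relatives of Dbp) was read in the same way. In fibroblast-like nuclei 1 of 14 was past 2-fold higher, beside 5.27% of all genes, and 0 lower, beside 2.56%. The higher one was Usp2, which encodes a deubiquitinase. It stood at 43.8 CPM (36.2 to 52.6) in CF-KI and 21.4 CPM (17.1 to 26.5) in control, a log2 ratio of 1.03 (0.62 to 1.45). No gene of this list was past 2-fold in cardiomyocyte-like (0 of 14) or endothelial-like nuclei (0 of 13). Of all genes, 11.1% were higher and 2.03% lower in the cardiomyocyte-like class, and 2.74% and 3.01% in the endothelial-like class. Beside the wide Dbp ratio in cardiomyocyte-like nuclei, its relative Tef stood at 152 CPM (141 to 164) and 130 CPM (121 to 140), a log2 ratio of 0.23 (0.07 to 0.38), and Hlf at -0.10 (-0.49 to 0.29). Hence the 3 genes of this family had unlike ratios in the same nuclei. Tef and Hlf were chosen for this comparison after their values were seen.

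Markers of other classes moved with the libraries as well. The summed level of the 10 cardiomyocyte markers, all detected in both libraries, was 14351 CPM in CF-KI and 4705 CPM in control fibroblast-like nuclei, and 13895 and 7885 CPM in endothelial-like nuclei. The share of free RNA estimated from markers of other classes was 43.5% and 24.3% in fibroblast-like, 15.5% and 6.55% in cardiomyocyte-like and 42.4% and 36.3% in endothelial-like nuclei of CF-KI and control. It was higher in CF-KI in all 9 classes and largest there in pericyte-like (65.6% and 38.0%), macrophage-like (64.4% and 28.3%) and endocardial-like nuclei (56.6% and 26.9%). After subtraction of that share the fibroblast-like ratios were 2.48 for Nr1d1 and -2.30 for Per2. The profile subtracted was the sum over all barcodes of the same library and not that of empty droplets. It therefore holds RNA of the class itself, and the part of free RNA in the ratios was not tested. The 7 airway epithelial markers were all detected in control fibroblast-like nuclei, at 648 CPM together, and all at 0 in CF-KI, and 77 airway epithelial-like nuclei came from control and 0 from CF-KI. Their part in the clock gene ratios was not tested. Nor was that of mitochondrial share, which was 13.8% at the median in CF-KI and 5.84% in control fibroblast-like nuclei. Within the fibroblast-like nuclei over 5% mitochondrial the ratios of Nr1d1 and Per2 were 2.20 (1.77 to 2.65) and -2.01 (-2.76 to -1.32), and within the cardiomyocyte-like nuclei at or under 5% Dbp was at 2.62 (2.03 to 3.26). Each of these values is from 1 side of the split only. Other values shifted under this split, from few UMIs in 1 of the libraries. Among cardiomyocyte-like nuclei over 5% Nr1d1 and Clock turned, as given above, with intervals that included 0. Arntl was at 0.79 (-1.88 to 6.18) there, with 1 control UMI. In fibroblast-like nuclei at or under 5%, Arntl kept its direction, at -2.06 (-7.38 to 0.45) with 1 CF-KI UMI. The 2 larger fibroblast-like clusters gave Nr1d1 ratios of 1.82 (1.25 to 2.42) and 2.45 (1.997 to 2.93), Per2 ratios of -2.81 (-3.87 to -1.90) and -1.72 (-2.78 to -0.79), and Per3 ratios of -1.14 and -1.13.

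**Figure D5:**
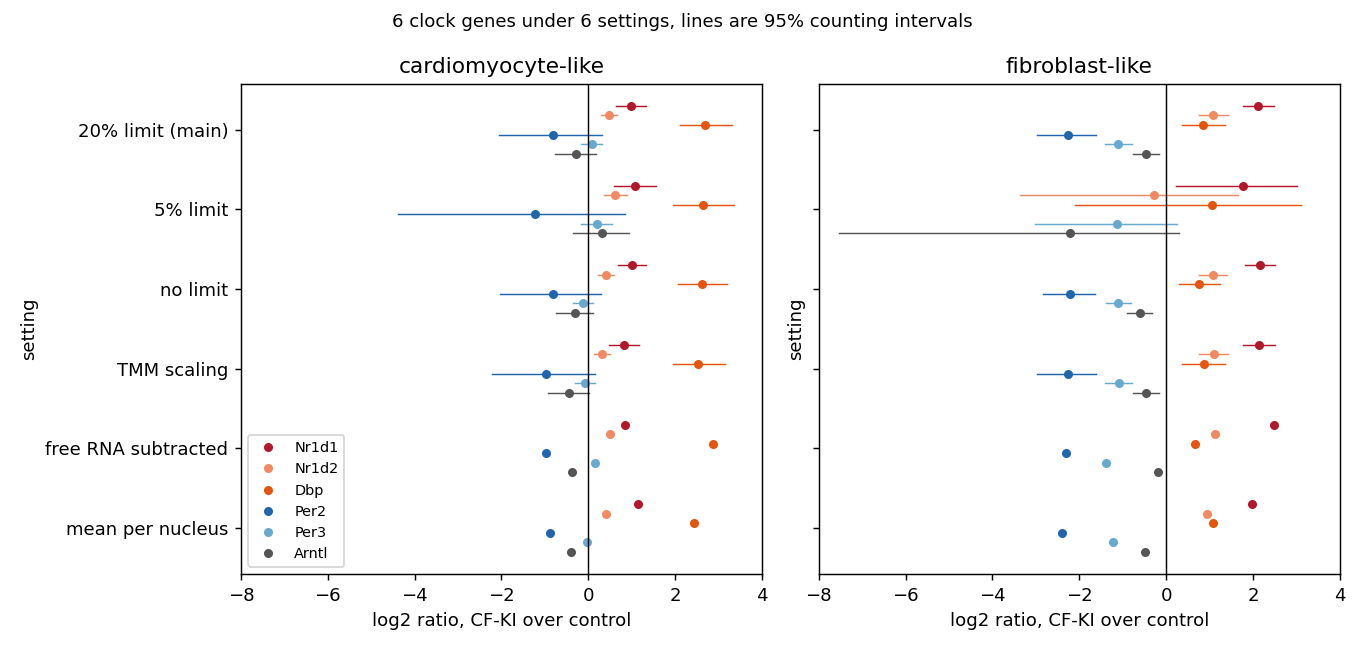
Log2 ratio of CF-KI over control for Nr1d1, Nr1d2, Dbp, Per2, Per3 and Arntl in cardiomyocyte-like (left) and fibroblast-like nuclei (right) under 6 ways of processing (rows), with lines for the 95% counting interval where a count allows one. Nr1d1 and Dbp stay right of 0 in all rows of both panels, while in the fibroblast-like row of the 5% mitochondrial limit, where CF-KI holds few UMIs, Nr1d2 moves to -0.28.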

How the data were processed

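The authors deposited raw UMI counts per gene and barcode for each library, made with Cell Ranger 6.1.1 on mm10 per the submitters' processing notes; whether intronic reads were counted is not given in the sources used here. From these counts, barcodes with fewer than 200 genes or over 20% mitochondrial UMIs were removed. A limit of 5% left few CF-KI fibroblast-like nuclei and was run as an alternative. The barcodes with the highest Scrublet doublet scores were removed up to 0.8% per 1000 barcodes, because the automatic threshold was not stable. Both libraries were clustered together (scanpy 1.11.5, Leiden resolution 0.8, 2000 variable genes without mitochondrial, ribosomal and clock genes, 30 components, 15 neighbours). Clusters were named by the marker list raised most in them, given at least 3 raised markers. UMIs were summed per library and class and scaled to non-mitochondrial UMIs. Levels have exact Poisson intervals, ratios conditional exact binomial intervals, and differences between ratios the square-and-add interval. Interval coverage was tested on simulated Poisson counts, which hold no variation between nuclei, animals or libraries, so it speaks for counting error only. Scaling alternatives used edgeR 4.0.16 (TMM) and DESeq2 1.42.0 (median of ratios), for factors only. Named genes are the 10 members in the 9 classes, list genes past 2-fold with at least 20 UMIs in cardiomyocyte-like, fibroblast-like or endothelial-like nuclei (at most 4 per direction), and the 5 genes nearest to Dbp and to Arntl. The members and lists were chosen with earlier results of these data known. Of the 32285 features, 32158 matched GENCODE vM21, the source of gene positions. The median depth of a kept nucleus was 1101 UMIs in CF-KI and 1102 in control, so single nuclei were not compared. A result of 1 list gene is not reported here.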

Additional observations from a re-analysis of the deposited data

Results flagged for a closer look

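The difference of the Npas2 ratios between the fibroblast-like and cardiomyocyte-like nuclei, 1.44 on the log2 scale (0.50 to 2.43), was singled out because the gene had opposite directions in the 2 classes. The CF-KI level was higher in fibroblast-like and lower in cardiomyocyte-like nuclei. With 1 library per group, the difference was not tested across animals.

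Barcodes with over 20% mitochondrial UMIs, which entered no class, held clock gene signal of the same direction. Over these 4518 CF-KI and 568 control barcodes the log2 ratio was 1.24 (0.52 to 2.04) for Nr1d1 from 210 and 17 UMIs, 0.89 (0.29 to 1.54) for Nr1d2 from 242 and 25 UMIs, and 1.504 (0.41 to 2.85) for Dbp from 104 and 7 UMIs. Per2 lay at -1.39 (-2.40 to -0.31) in the same barcodes. These are sums over barcodes of unlike classes.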

How the results depend on the processing

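Over 63 ratios of a clock gene in a class, 896 alternative values were computed, of which 837 lay within the interval of the main value. Alternatives with a count of 0 in a library, or with a level not above 0 after subtraction of free RNA, gave no value and are not counted. Settings that change few nuclei, such as leaving out the shared barcodes, are counted. For the 34 ratios whose interval left out 0, 480 of 488 alternative values had the same sign. The 8 that turned came from the mitochondrial share or a single cluster. With a 5% limit Nr1d2 was at -0.28 in fibroblast-like and -0.043 in mesothelial-like nuclei, and in the nuclei of the main classes at or under 5% it was at -0.18 and -0.10. In nuclei over 5%, Clock was at 0.95 and Nr1d1 at -0.10 in cardiomyocyte-like nuclei and Per3 at 0.047 in mesothelial-like nuclei. Per1 was at 0.56 in the smaller endothelial-like cluster. Values of Dbp and Arntl outside the main interval were Arntl at -2.22 (5% limit) and -2.06 (at or under 5%) and Dbp at 1.80 (at or under 5%) in fibroblast-like nuclei, Arntl at 0.31 (5% limit) and 0.79 (over 5%) in cardiomyocyte-like nuclei, and Dbp at 2.24 (smaller cluster) and -0.39 (free RNA subtracted) in endothelial-like nuclei. The cause of these shifts was not tested. At the 5% limit the CF-KI counts of a clock gene in fibroblast-like nuclei were mostly under 10 UMIs, which limits what those values can show, and there the larger CF-KI cardiomyocyte cluster stayed without a name. The share of all genes past 2-fold in either direction moved in all 9 classes with the minimum count, in cardiomyocyte-like nuclei from 13.1% to 29.2% at 1 UMI and 9.73% at 100 UMIs. The splits by mitochondrial share within the main classes and by cluster were chosen after seeing the data, and the smallest fibroblast-like cluster (10 CF-KI and 27 control nuclei) was not run alone. No paired analysis was possible because each group holds a single library.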

Other observations

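In the smaller classes, some genes of the same lists were past 2-fold, and part of them are named here after their values were seen. Of the other rhythmic genes with enough UMIs, endocardial-like nuclei had 1 of 13 higher and 1 lower, beside 6.41% and 3.47% of all genes. Pericyte-like nuclei had 1 of 10 higher and 1 lower, beside 11.3% and 3.78%. Mesothelial-like nuclei had 1 of 13 higher and 0 lower, beside 6.5% and 3.64%. Usp2 was higher in CF-KI in endocardial-like nuclei, at 27.9 CPM (17.7 to 41.8) against 9.13 CPM (4.17 to 17.3) and a log2 ratio of 1.61 (0.45 to 2.91), and in pericyte-like nuclei, at 1.37 (0.17 to 2.69) from 20 and 9 UMIs. Hlf, which encodes a relative of DBP, was lower in CF-KI in the same classes, at -1.49 (-2.25 to -0.79) from 22 and 74 UMIs and at -1.08 (-2.24 to -0.02) from 11 and 27 UMIs. Bhlhe41, which encodes a repressor that binds E-boxes, was higher in mesothelial-like nuclei, at 64.8 CPM (46.7 to 87.6) against 29.9 CPM (18.5 to 45.6) from 42 and 21 UMIs.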
